A study of Homo sapiens with 12 samples.

Results

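The set described here is 10 genes of the antioxidant and detoxification response controlled by the transcription factor NRF2, out of 65969 gene identifiers in the deposited table. It holds 3 aldo-keto reductases (AKR1C1, AKR1C2 and AKR1C3), both subunits of glutamate-cysteine ligase (GCLC and GCLM), the cystine transporter subunit SLC7A11, NQO1, TXNRD1, SRXN1 and HMOX1. All 10 were found by symbol and all 10 passed the filter on low counts. The set was chosen because AKR1C3 and GCLC were lower with knockdown in these same libraries. Differences between knockdown and control libraries are therefore given as descriptions, with standard errors (SE) and without p-values. Tests are given for the differences among METTL14 hairpins and between the lines under those hairpins. These compare no control library, but all 12 libraries entered the filter, the scaling and the estimate of spread. The difference between the lines in the effect was also tested, for the 8 members other than AKR1C3 and GCLC, although it shares the control libraries with the contrast that chose the set.

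The libraries are stranded total RNA from embryoid bodies, aggregates that pluripotent stem cells form as they differentiate in suspension. The cells were of H1 or MEL1, which are established lines of human embryonic stem cells. Each line carried a lentiviral SMARTvector for a doxycycline-inducible short hairpin RNA and had been selected with puromycin, and the hairpin was KD1, KD2 or KD3 against METTL14 or the control SCR. METTL14 is a subunit of the enzyme complex that places N6-methyladenosine on RNA. Aggregates of 500 cells per microwell were cultured for 10 days, and the SCR libraries carry a vector and received doxycycline (2 µg/ml) like the knockdown libraries. H1 has 2 libraries each of SCR, KD1, KD2 and KD3, and MEL1 has 1 SCR, 2 KD1 and 1 KD2 library. The labels do not say whether libraries of a group came from separate cultures, so p-values measure the spread between these libraries, which may be technical, and they do not say whether the transduced cells were clonal.

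Under basal conditions the adaptor KEAP1 presents NRF2, encoded by NFE2L2, for degradation, and oxidants or electrophiles release it. NRF2 then pairs with a small MAF protein at antioxidant response elements and raises genes of glutathione synthesis, thioredoxin reduction and quinone and carbonyl reduction, while BACH1 represses some of the same elements. The AKR1C enzymes are ketosteroid reductases that also reduce reactive carbonyls and prostaglandins, and human cells are known for a strong response of these genes to NRF2.

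AKR1C1, AKR1C2 and AKR1C3 lie together on chromosome 10. In GENCODE release 29 on GRCh38, AKR1C1 (ENSG00000187134) spans 4963253 to 4983283 on the plus strand, AKR1C2 (ENSG00000151632) spans 4987400 to 5018031 on the minus strand and AKR1C3 (ENSG00000196139) spans 5035354 to 5107686 on the plus strand. Their sequences are alike enough that the division of reads among them is uncertain. The coding sequences of AKR1C1 and AKR1C2 matched at 98% of 972 bases, with 19 differences, while AKR1C3 matched AKR1C1 at 91.5% and AKR1C2 at 91%. Of all stretches of 31 bases in the annotated transcripts of AKR1C2, 47.3% were also in AKR1C1. The share was 35.1% for AKR1C1 in AKR1C2, and 7.17% of the stretches of AKR1C3 were in any other gene. AKR1C3 was thus the best separated of the 3, and AKR1C1 and AKR1C2 are read most safely as a sum. The first 120 coding bases show this, with capitals at the 4 positions in AKR1C2 and the 16 in AKR1C3 that differ from AKR1C1 (GENCODE release 29 transcripts).
AKR1C1: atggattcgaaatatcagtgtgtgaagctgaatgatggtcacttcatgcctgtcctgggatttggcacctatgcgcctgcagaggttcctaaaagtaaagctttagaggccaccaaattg
AKR1C2: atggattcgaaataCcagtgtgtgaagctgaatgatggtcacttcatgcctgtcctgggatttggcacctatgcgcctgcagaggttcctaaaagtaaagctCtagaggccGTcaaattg
AKR1C3: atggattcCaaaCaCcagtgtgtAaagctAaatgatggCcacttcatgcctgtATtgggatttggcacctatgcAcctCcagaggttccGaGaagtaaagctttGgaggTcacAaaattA

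The other members are single genes on separate chromosomes. GCLC (ENSG00000001084) lies on chromosome 6 at 53497341 to 53616970, minus strand, and GCLM (ENSG00000023909) on chromosome 1 at 93885205 to 93909456, minus strand. NQO1 (ENSG00000181019) lies on chromosome 16 at 69706996 to 69726951, minus strand, and TXNRD1 (ENSG00000198431) on chromosome 12 at 104215779 to 104350305, plus strand. SLC7A11 (ENSG00000151012) lies on chromosome 4 at 138164097 to 138242349, minus strand, HMOX1 (ENSG00000100292) on chromosome 22 at 35380361 to 35394214, plus strand, and SRXN1 (ENSG00000271303) on chromosome 20 at 646615 to 653370, minus strand. In SRXN1, 84.9% of the 31-base stretches were also in other annotated genes, above the 48.2% of AKR1C2, so its reads too are uncertain to assign. The gene it shared most with was ENSG00000270299, an overlapping protein-coding annotation that reached at most 3.39 CPM in any library, CPM being a gene's count after scaling all libraries to 1 size. SLC7A11 overlaps the opposite-strand gene SLC7A11-AS1 (at most 2.01 CPM), and the transcripts annotated across GCLC and NQO1 did not exceed 0.428 CPM.

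The core of the antioxidant response element was searched for in the 250 bases before the annotated starts in RefSeq (GRCh38.p14), as TGACNNNGC on either strand. Windows were in the table for 8 of the 10 members, and not for SLC7A11 and HMOX1. These 8 members had 10 windows, since some have more than 1 start. The core was found in 3 of the 10 windows (30%), of GCLM and TXNRD1, and in 10.9% of all 35116 windows of that length. The stretches are shown because they place the known kind of NRF2 site in these genes, with the 9 bases of the core in capitals.
GCLM, 34 bases before the start, minus strand, chr1:93909446-93909474: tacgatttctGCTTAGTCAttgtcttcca
TXNRD1, 99 bases before the first start, plus strand, chr12:104215670-104215698: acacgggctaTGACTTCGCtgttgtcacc
TXNRD1, 102 bases before another start, plus strand, chr12:104286920-104286948: gtggatttctGCTTTGTCAttctgactct
The core lies on the strand opposite to the gene in GCLM and in the last TXNRD1 stretch. A match is a description of the letters and not evidence that NRF2 bound there.

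The targeted gene was lower in all 9 knockdown libraries. METTL14 had 29.8 and 43.8 CPM in H1 SCR against 8.89 to 17.7 CPM with the hairpins, and 49.9 CPM in MEL1 SCR against 5.94 to 8.95 CPM with the hairpins. Over both lines its log2 fold change was -1.96 (SE 0.23, adjusted p 0.00266, edgeR quasi-likelihood test). The MEL1 SCR library held 15963241 estimated counts and the other 11 held 36609628 to 43508287. Low members rest on few counts, down to 63 estimated counts for AKR1C3 and 76.3 for AKR1C1, whereas TXNRD1 had at least 2825.

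AKR1C1, AKR1C2 and AKR1C3 were high in the H1 SCR libraries alone. AKR1C1, which inactivates progesterone, was at 14.6 and 13.1 CPM in H1 SCR, 3.67 and 5.6 CPM with KD1, 3.08 and 3.67 CPM with KD2, and 5.08 and 3.12 CPM with KD3. In MEL1 it was at 5.18 CPM with SCR, 3.15 and 4.1 CPM with KD1 and 7.22 CPM with KD2. All 6 H1 knockdown libraries lay below both H1 SCR libraries, while the MEL1 knockdown libraries lay on both sides of their SCR library. AKR1C2, which reduces dihydrotestosterone, was at 23.5 and 22.2 CPM in H1 SCR and at 4.53 to 5.83 CPM in H1 knockdown libraries (median 5.23). In MEL1 AKR1C2 was at 5.66 CPM with SCR, 3.81 and 2.73 CPM with KD1 and 4.54 CPM with KD2. Relative to H1 SCR, AKR1C2 was at 22.6% ± 2.01 (SD, n = 6) in the H1 knockdown libraries, and their range overlapped that of MEL1.

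AKR1C3, which makes testosterone and prostaglandin F2 products, had the lowest levels relative to SCR. It was at 18.5 and 20.3 CPM in H1 SCR, 2.88 and 3.91 CPM with KD1, 2.57 and 3.44 CPM with KD2, and 6.31 and 4.73 CPM with KD3. MEL1 had 5.66 CPM with SCR, 1.97 and 1.81 CPM with KD1 and 3.94 CPM with KD2. Knockdown and SCR libraries did not overlap in either line, though in MEL1 the SCR side is 1 library. The 2 KD1 libraries of MEL1 held the 2 lowest AKR1C3 values of the series.

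**Figure D1:**
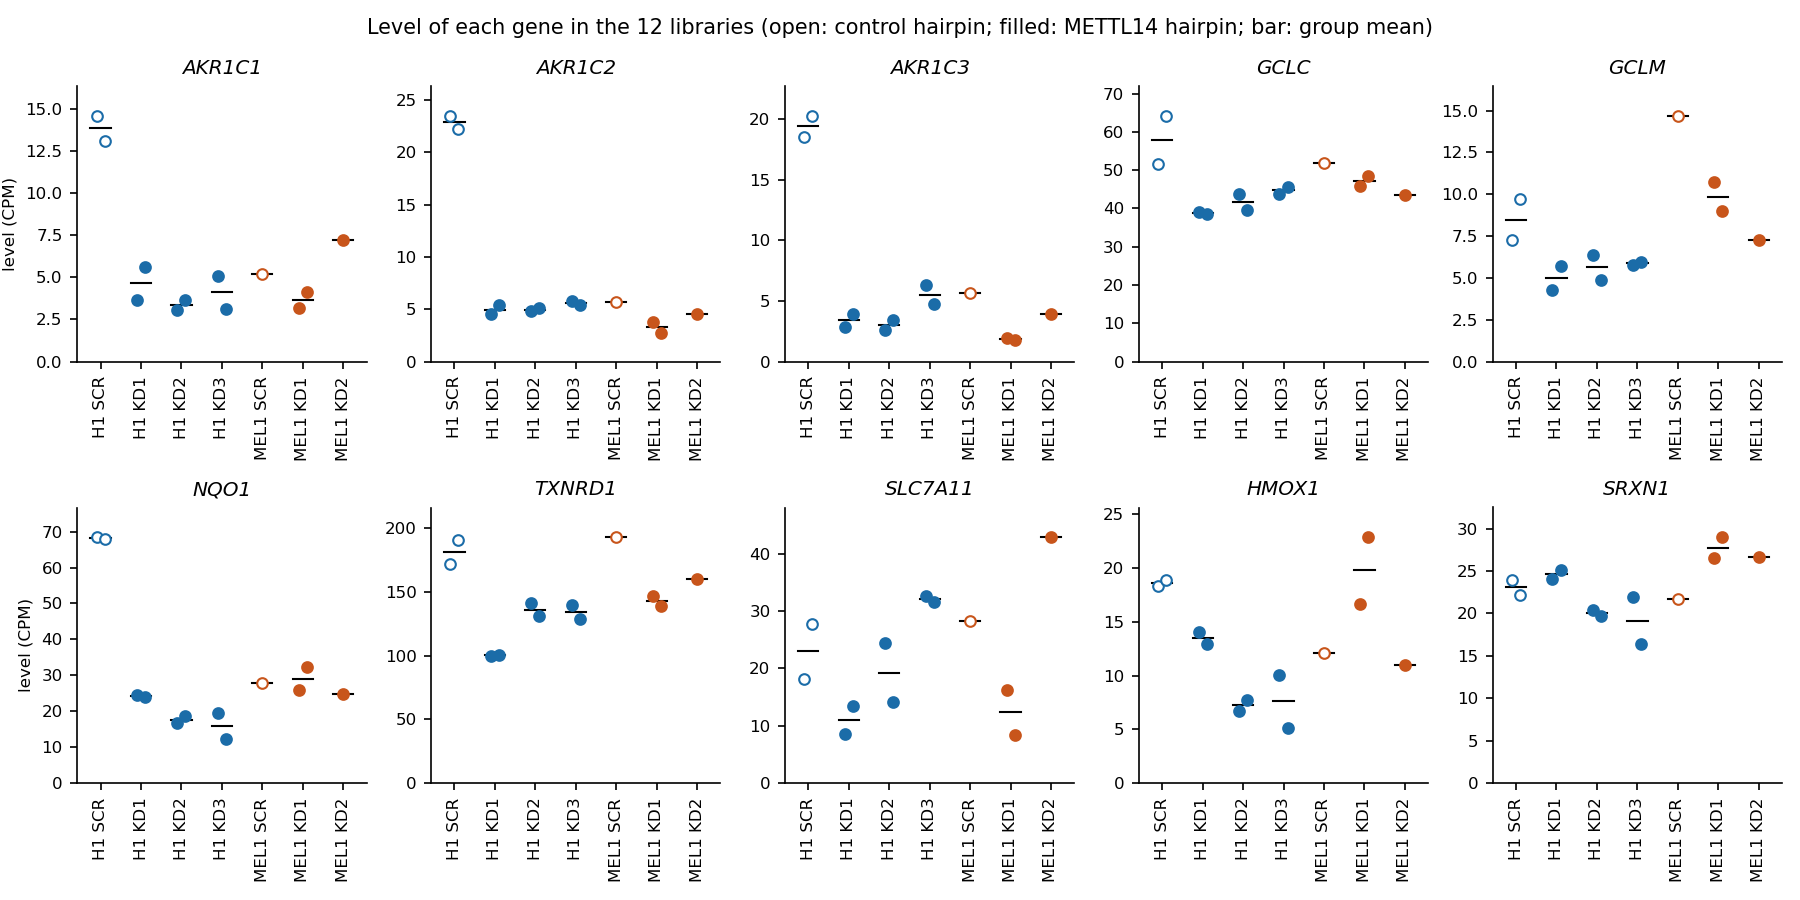
Level of each of the 10 genes in CPM (scaled counts, vertical axes from 0) by line and hairpin, with open points for SCR libraries, filled points for METTL14 hairpins (blue H1, orange MEL1) and bars for group means. For AKR1C1, AKR1C2, AKR1C3 and NQO1 the H1 SCR libraries stand above all other libraries, whereas GCLC, GCLM and TXNRD1 show smaller separations in both lines, and SLC7A11, HMOX1 and SRXN1 differ among hairpins or lines.

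Summing the 3 genes removes the uncertainty of dividing reads among them. The AKR1C sum was 56.7 and 55.6 CPM in H1 SCR and 10.5 to 17.2 CPM (median 12.7) in the 6 H1 knockdown libraries, or 23.5% ± 4.5 (SD, n = 6) of the H1 SCR mean. In MEL1 the sum was 16.5 CPM with SCR, 8.93 and 8.64 CPM with KD1 and 15.7 CPM with KD2. The MEL1 SCR library was therefore within the range of the H1 knockdown libraries, and the KD2 library of MEL1 was close to its SCR library. The log2 fold change of the sum was -2.10 (SE 0.13) for the average of the H1 hairpins, -0.91 (SE 0.22) for KD1 in MEL1 and -0.071 (SE 0.26) for KD2 in MEL1. Over both lines it was -1.68 (SE 0.25), and -2.09 without the MEL1 SCR library.

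The composition of the sum varied less than its size in H1, but not in the KD2 library of MEL1. In H1, AKR1C2 made up 40% and 41.5% of the sum with SCR and 33.9% to 46.1% with the hairpins. AKR1C3 made up 32.7% and 36.5% with SCR and 24.5% to 36.7% with the hairpins, the 2 highest of those being the KD3 libraries at 36.7% and 35.8%. In MEL1, AKR1C3 made up 34.3% with SCR and 20.9% to 25.1% with the hairpins, below the SCR library in all 3. For H1, AKR1C1 made up 25.8% and 23.5% with SCR and 23.6% to 37.6% with the hairpins, 5 of 6 of which were above both SCR libraries. For MEL1 it made up 31.4% with SCR, 35.2% and 47.5% with KD1 and 46% with KD2, whose sum was close to that of SCR. The shares of SCR and knockdown libraries thus overlapped in H1 for each of the 3 genes, whose levels were all lower in the H1 knockdown libraries. AKR1C4, the liver-restricted member of the cluster, did not exceed 0.487 CPM.

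GCLC and GCLM form the ligase that makes the first and rate-limiting step of glutathione synthesis, GCLC being the catalytic subunit and GCLM the modifier. GCLC was at 51.7 and 64.3 CPM in H1 SCR and at 38.6 to 45.6 CPM (median 41.7) in H1 knockdown libraries. In MEL1 it was at 52 CPM with SCR, 46 and 48.5 CPM with KD1 and 43.4 CPM with KD2. No knockdown library reached the SCR libraries of its line, but the separation was small: the H1 knockdown libraries held 72% ± 5.19 (SD, n = 6) of the SCR level and those of MEL1 88.4% ± 4.89 (SD, n = 3). GCLM was at 7.28 and 9.69 CPM in H1 SCR and at 4.3 to 6.38 CPM (median 5.75) in H1 knockdown libraries. The MEL1 libraries had 14.7 CPM with SCR, 10.7 and 8.98 CPM with KD1 and 7.24 CPM with KD2. GCLM was the member with the most similar fold change in the lines, -0.67 (SE 0.19) in H1 and -0.80 (SE 0.26) in MEL1 on the log2 scale for the mean of KD1 and KD2.

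SLC7A11, the subunit of the transporter that imports cystine for glutathione, varied more between hairpins than between SCR and knockdown. It was at 18.1 and 27.8 CPM in H1 SCR, 8.55 and 13.5 CPM with KD1, 24.4 and 14.1 CPM with KD2, and 32.7 and 31.5 CPM with KD3. MEL1 had 28.2 CPM with SCR, 16.3 and 8.41 CPM with KD1 and 42.9 CPM with KD2. KD1 libraries lay below the SCR libraries in both lines, while both KD3 libraries of H1 and the KD2 library of MEL1 lay above them.

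NQO1 reduces quinones by transferring a pair of electrons and is the usual marker of NRF2 activity. It was at 68.5 and 68 CPM in H1 SCR, 24.4 and 23.9 CPM with KD1, 16.6 and 18.6 CPM with KD2, and 19.5 and 12.2 CPM with KD3. The MEL1 libraries had 27.8 CPM with SCR, 25.8 and 32.4 CPM with KD1 and 24.8 CPM with KD2. The H1 knockdown libraries held 28.2% ± 6.7 (SD, n = 6) of the H1 SCR level, and the MEL1 knockdown libraries held 99.6% ± 14.9 (SD, n = 3) of theirs. NQO1 thus had the same outline as the AKR1C genes, with H1 SCR above every other library.

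TXNRD1, the cytosolic reductase that keeps thioredoxin reduced, was at 172 and 191 CPM in H1 SCR, 99.9 and 100.3 CPM with KD1, 141 and 131 CPM with KD2, and 140.0 and 129 CPM with KD3. In MEL1 it was at 193 CPM with SCR, 147 and 139 CPM with KD1 and 159.9 CPM with KD2. It was below SCR in all 9 knockdown libraries, lowest in the KD1 libraries of each line. SRXN1, which repairs over-oxidised peroxiredoxins, was at 23.9 and 22.2 CPM in H1 SCR and 16.4 to 25.1 CPM (median 21.2) in H1 knockdown libraries, which overlapped. SRXN1 in MEL1 had 21.7 CPM in the SCR library, and all 3 knockdown libraries were above it, at 26.5 to 29 CPM.

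HMOX1, the inducible oxygenase that breaks down haem, was at 18.3 and 18.9 CPM in H1 SCR, 14.1 and 12.9 CPM with KD1, 6.7 and 7.77 CPM with KD2, and 10.1 and 5.11 CPM with KD3. MEL1 had 12.1 CPM with SCR, 16.7 and 22.9 CPM with KD1 and 11 CPM with KD2. All 6 H1 knockdown libraries were below SCR, whereas both KD1 libraries of MEL1 were above theirs.

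Across the 10 members, 8 had all 6 H1 knockdown libraries below both H1 SCR libraries, a separation found in 11.7% of all 24898 tested genes. The exceptions were SLC7A11 and SRXN1. In 5 members (AKR1C2, AKR1C3, GCLC, GCLM and TXNRD1) all 9 knockdown libraries were below the SCR libraries of their line, against 3.96% of all genes. For AKR1C2 in MEL1 this depends on how reads were divided. In the KD2 library AKR1C2 was below SCR (4.54 and 5.66 CPM) while AKR1C1 was above it (7.22 and 5.18 CPM). Of the 10, 2 were called lower over both lines (AKR1C2 and AKR1C3), where 0.157% of all genes were. In the H1 average 7 were called lower, the exceptions being GCLM, SLC7A11 and SRXN1, where 4.93% of all genes were. Nothing is read from these counts, because the set was chosen from the same contrast. The count over both lines was 0 without either one of the H1 SCR libraries and 4 without the MEL1 SCR library. With DESeq2 it was 7, where 5% of all genes were called in either direction. The H1 count was 4 without the second H1 SCR library.

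**Figure D2:**
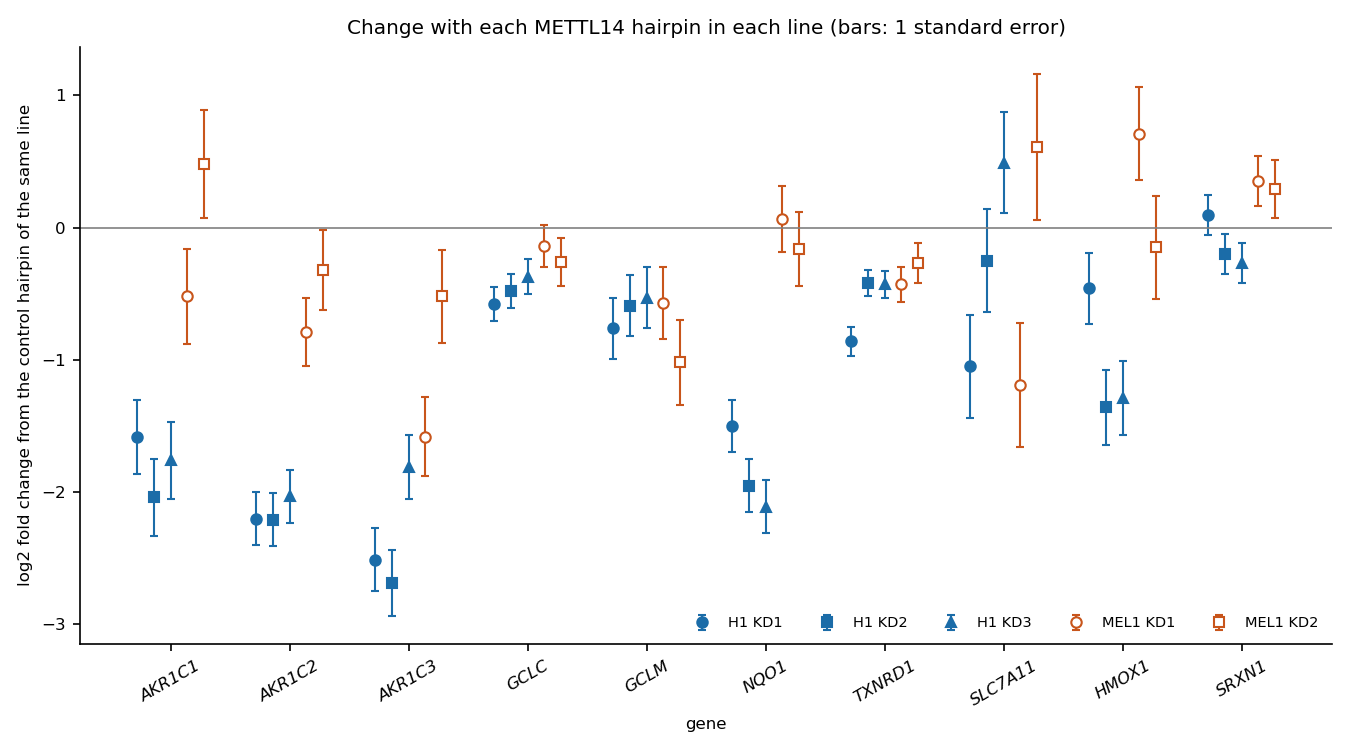
Log2 fold change of each gene (horizontal axis) from the SCR libraries of the same line, with bars of 1 standard error, for KD1, KD2 and KD3 in H1 (blue, filled) and KD1 and KD2 in MEL1 (orange, open). AKR1C1, AKR1C2 and NQO1 lie between -1.50 and -2.21 for the H1 hairpins and between -0.79 and 0.48 in MEL1, which has 1 SCR library, and the hairpins of 1 line share their SCR libraries.

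The differences among the H1 hairpins do not compare SCR libraries and were tested. With edgeR, 0 of the 10 members were called in the test of any difference among KD1, KD2 and KD3, where 3.54% of all genes were. Of these 10, 5 had an unadjusted p under 0.05, as did 4978 of all 24898 genes. DESeq2 called 3 (HMOX1, SLC7A11 and TXNRD1), where it called 8.93% of all genes. Without the first H1 KD3 library edgeR called 2 (HMOX1 and NQO1). TXNRD1 had the lowest adjusted p, 0.0572, with KD1 libraries below KD2 and KD3. For KD3 against KD1 by itself its log2 difference was 0.43 (SE 0.10, adjusted p 0.0456), which passed the threshold, as 2.61% of all genes did in that direction. In 15 of 20 other settings it did not pass, with adjusted p from 0.00575 to 0.266 over the 20 and differences of 0.29 to 0.49.

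SLC7A11 had the widest difference between hairpins, 1.54 on the log2 scale for KD3 against KD1 (SE 0.40, adjusted p 0.0688, edgeR), higher in 2 of 2 libraries. AKR1C3 was higher with KD3 than with KD2 by 0.88 (SE 0.24, adjusted p 0.15) and than with KD1 by 0.70 (SE 0.24, adjusted p 0.123). HMOX1 was lower with KD2 than with KD1 by a log2 of -0.90 (SE 0.27, adjusted p 0.167). None of these passed, and with 2 libraries a hairpin that does not show that the hairpins act alike. For AKR1C2 the differences among hairpins were at most 0.18 with a standard error of 0.20. METTL14 itself was 0.56 higher with KD2 than with KD1 (SE 0.24, adjusted p 0.302).

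The effect of KD1 and KD2 was smaller in MEL1 than in H1 for AKR1C2 and NQO1. The difference of the effects, MEL1 minus H1, was 1.65 for AKR1C2 (SE 0.31, adjusted p 0.0483) and 1.68 for NQO1 (SE 0.30, adjusted p 0.0425) on the log2 scale (edgeR). These 2 were the members called, where 0.454% of all genes were called higher, and the median of all genes was 0.11. The test shares its SCR libraries with the contrast that chose the set, so its p-values are not free of that choice. It rests on 1 MEL1 SCR library, without which it could not be fitted. The division of reads between AKR1C2 and AKR1C1, which did not pass, is also uncertain. Both calls were close to the threshold: of 17 other settings AKR1C2 passed in 4 and NQO1 in 6, the highest adjusted p being 0.114 and 0.11, with differences of 1.50 to 1.75 and 1.57 to 1.74. Neither was called without any 1 of the H1 SCR, KD1 or KD2 libraries, and 1 of the pair was called without any 1 of the MEL1 KD1 or H1 KD3 libraries.

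The other members tested in this way did not pass. AKR1C1 differed by 1.79 (SE 0.44, adjusted p 0.0814) and HMOX1 by 1.19 (SE 0.41, adjusted p 0.181). SRXN1, SLC7A11, TXNRD1 and GCLM differed by 0.38 (SE 0.23), 0.36 (SE 0.57), 0.29 (SE 0.15) and -0.12 (SE 0.33), with adjusted p of 0.369 to 0.922. The difference was 1.55 (SE 0.36) for AKR1C3 and 0.33 (SE 0.19) for GCLC, given without a test. For the AKR1C sum it was 1.72 (SE 0.27).

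**Figure D3:**
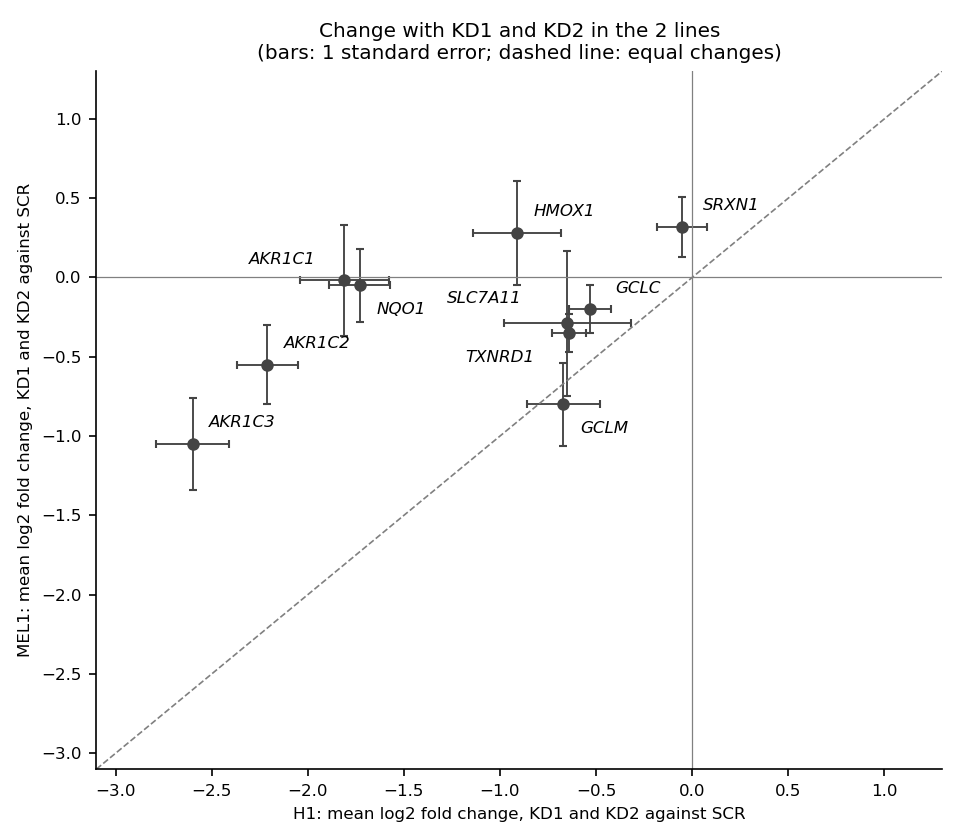
Mean log2 fold change of KD1 and KD2 against SCR in H1 (horizontal axis) and MEL1 (vertical axis), with bars of 1 standard error and a dashed line where the lines would be equal. AKR1C1, AKR1C2, AKR1C3 and NQO1 lie above the dashed line, by 1.79, 1.65, 1.55 and 1.68, and GCLM lies just below it (-0.12).

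The levels of the control libraries differed in the same genes, and in many others. MEL1 SCR minus H1 SCR was -1.42 (SE 0.38) for AKR1C1, -2.02 (SE 0.27) for AKR1C2, -1.78 (SE 0.32) for AKR1C3 and -1.30 (SE 0.26) for NQO1 on the log2 scale. GCLM differed the other way, by 0.79 (SE 0.27). Of all 24898 genes, 3846 were called lower in this comparison, whose MEL1 side is 1 library. Under KD1 and KD2, where no SCR library is compared, the AKR1C sum differed between the lines by -0.047 (SE 0.14, adjusted p 0.82, edgeR). AKR1C2 was lower in MEL1 by a log2 of -0.36 (SE 0.16, adjusted p 0.0921), AKR1C3 by -0.23 (SE 0.19, adjusted p 0.37), and AKR1C1 and NQO1 were higher by 0.37 (SE 0.22, adjusted p 0.202) and 0.38 (SE 0.15, adjusted p 0.0636). With the METTL14 hairpins the differences between the lines in these 4 genes were thus at most 0.38 in size, and none passed the threshold. That does not show that the lines were equal. AKR1C2 passed without the first MEL1 KD1 library, and NQO1 passed with no low-count filter or without either H1 KD3 library.

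Under KD1 and KD2, 3 of the 10 members were called higher in MEL1 than in H1, where 22.0% of all genes were, so the share is near the background. GCLM was higher by 0.67 (SE 0.18, adjusted p 0.0102), TXNRD1 by 0.37 (SE 0.082, adjusted p 0.00349) and HMOX1 by 0.58 (SE 0.21, adjusted p 0.0476). GCLM and TXNRD1 passed in all 18 other settings. HMOX1 passed in 8 of 18, with adjusted p of 0.154 without the second MEL1 KD1 library. Without either H1 KD3 library 5 members were called, NQO1 and SRXN1 being added.

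NFE2L2, KEAP1 and BACH1 did not differ past the threshold over both lines. NFE2L2, which encodes NRF2, was at 37.7 and 53.7 CPM in H1 SCR and 33 to 41.5 CPM in H1 knockdown libraries, and its log2 difference over both lines was -0.30, with an SE of 0.13 and an adjusted p of 0.261 (edgeR). KEAP1 was at 56.6 and 54.1 CPM in H1 SCR and 49.5 to 66.3 CPM with the hairpins. The MEL1 libraries had 35.4 CPM with SCR, 73.1 and 75.8 CPM with KD1 and 43.2 CPM with KD2. The KEAP1 levels therefore overlapped in H1 and were above the single SCR library in MEL1, with a fold change over both lines of 0.28 (SE 0.18, adjusted p 0.48). In MEL1 by itself KEAP1 was called higher, by 0.68 (SE 0.16, adjusted p 0.0414), as 730 of all 24898 genes were. That call is near the threshold and rests on 1 SCR library, the one with the fewest counts. KEAP1 was not the only related gene to differ in MEL1. PSAT1, ASNS and AKR7A2 differed there by -0.59 (SE 0.12), -0.95 (SE 0.22) and 0.69 (SE 0.17). The difference of the effects between the lines was 0.70 (SE 0.19, adjusted p 0.111). For BACH1 the change was 0.094 (SE 0.18, adjusted p 0.854). Of the 10 listed regulators, 0 were called over both lines and 1 in the H1 average, where 4.93% of all genes were called lower. That 1 was RBX1, a subunit of the ligase that works with KEAP1 (-0.49, SE 0.10, adjusted p 0.0167).

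Among 29 other NRF2 targets, 27 were tested. Over both lines edgeR called 0 of the 27, where 0.213% of all genes were called in either direction. DESeq2 called 2 of the 27, PIR and TXN, where it called 5% of all genes. Of the 27, 7 had an unadjusted edgeR p under 0.05, as did 3918 of all 24898 genes. Without the second MEL1 KD1 library PIR and TXN were called, and without the MEL1 KD2 library PIR was. In the H1 average 8 of the 27 were called lower, where 4.93% of all genes were, and 0 higher. Their median log2 fold change was -0.18 beside 0.0056 for all genes. TXN, the thioredoxin that TXNRD1 reduces, fell from 125 and 142 CPM to between 58.9 and 84.8 CPM in H1 (log2 -0.92, SE 0.14, adjusted p 0.0057). ME1, the malic enzyme that supplies NADPH, changed by -0.98 (SE 0.24, adjusted p 0.0349), and PIR, a redox-sensitive nuclear protein, by -0.75 (SE 0.14, adjusted p 0.0125). The other 5 were EPHX1, a hydrolase of epoxides, MGST1 and GSTP1, which conjugate glutathione, PRDX1, a peroxiredoxin, and TALDO1 of the pentose phosphate pathway, at -0.54, -0.50, -0.44, -0.42 and -0.40. All 6 H1 knockdown libraries were below both SCR libraries in each of the 8.

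In MEL1 only 2 of these 8, PIR and PRDX1, had all 3 knockdown libraries below SCR. GSTP1 was at 413 CPM in MEL1 SCR, 609 and 723 CPM with KD1 and 405 CPM with KD2. None of the 8 was called for a difference of the effect between the lines, the lowest adjusted p being 0.0958 for GSTP1 (0.73, SE 0.19). The H1 calls rest on both SCR libraries: without the first, 2 of the 8 remained past the threshold (MGST1 and TXN), and without the second, 0 did, with adjusted p of 0.0901 to 0.317 and all 8 still lower.

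**Figure D4:**
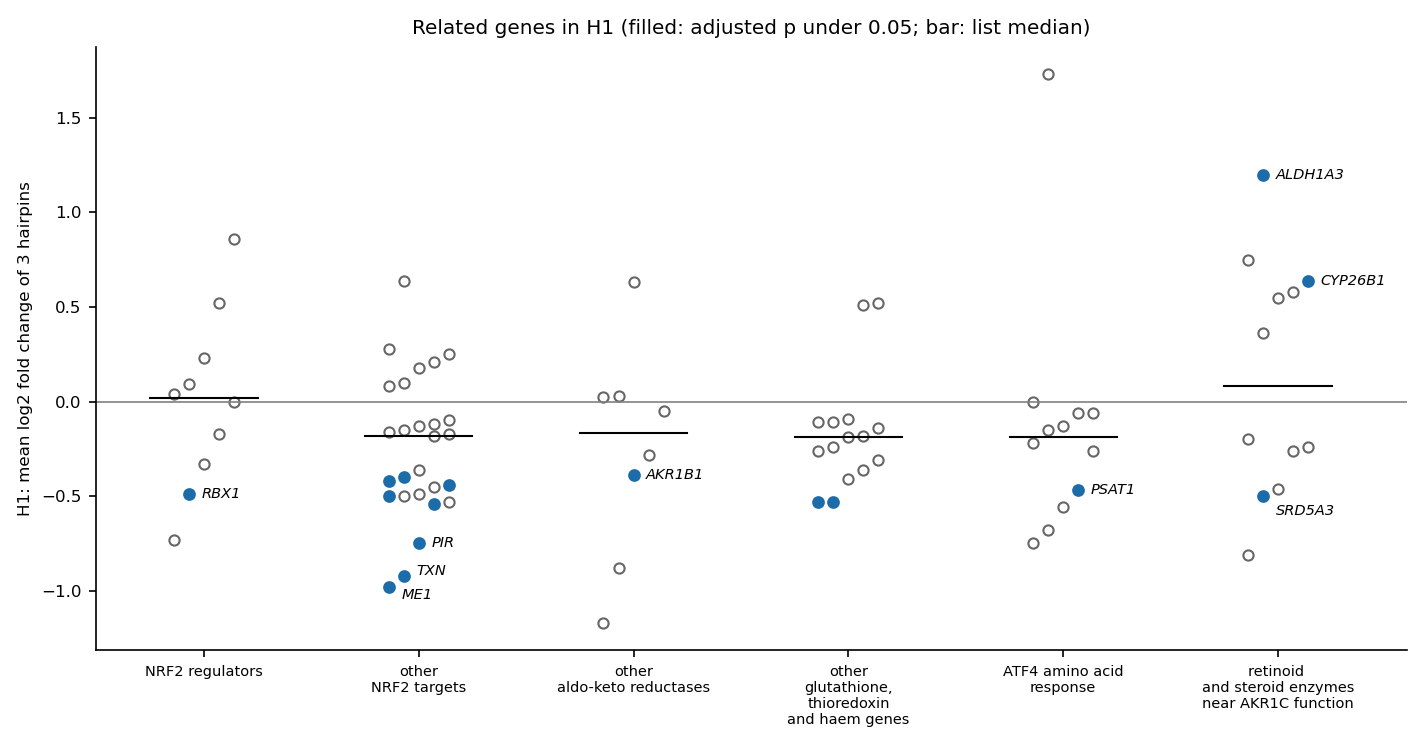
Mean log2 fold change of the 3 H1 hairpins against H1 SCR (vertical axis) for the tested genes of 6 related lists (horizontal axis), with filled points for genes at an adjusted p under 0.05 and bars for list medians. The called genes lie below 0 in all lists but the retinoid and steroid enzymes, where ALDH1A3 and CYP26B1 lie above 0, and the median of other NRF2 targets is -0.18.

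Of all 84 tested genes in the 6 related lists, 0 were called over both lines by edgeR. DESeq2 called 7, where it called 5% of all genes. Unadjusted edgeR p was under 0.05 for 21 of these 84 and for 3918 of all 24898 genes. In the H1 average 14 were called lower and 2 higher, where 4.93% and 2.23% of all genes were, and 8 of the 14 are the NRF2 targets above. Among 8 tested aldo-keto reductases outside the AKR1C group, AKR1B1, which reduces glucose and aldehydes, was called (-0.39, SE 0.086, adjusted p 0.0254). Among 15 tested glutathione, thioredoxin and haem genes, the mitochondrial peroxiredoxin PRDX3 and the superoxide dismutase SOD1 were called, both at -0.53 (adjusted p 0.0057 and 0.014).

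Among 12 genes of the amino acid response driven by ATF4, a factor that also raises SLC7A11, 1 was called in H1, the serine synthesis enzyme PSAT1. Of all genes 4.93% were called lower in the H1 average, and nothing is read from 1 call in 12. PSAT1 was at 285 and 289 CPM in H1 SCR and 165 to 269.6 CPM with the hairpins (log2 -0.47, SE 0.08, adjusted p 0.0099). Among 12 retinoid and steroid enzymes, ALDH1A3, which makes retinoic acid, rose by 1.20 (SE 0.18, adjusted p 0.0052) and CYP26B1, which degrades it, by 0.64 (SE 0.17, adjusted p 0.044). SRD5A3, a steroid reductase also used in glycosylation, fell by 0.50 (SE 0.11, adjusted p 0.0214). Of these 16 calls in the H1 average, 0 passed without the second H1 SCR library, with adjusted p of 0.087 to 0.317, and 5 passed without the first.

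Some markers of other cell types differed between H1 SCR and H1 knockdown libraries, and their part in the results was not tested. In these bulk libraries, fewer cells of a type and less RNA per cell cannot be told apart. The summed level of 6 tested endothelium and blood markers of 7 was 161 to 165 CPM in H1 SCR and 66.6 to 92.2 CPM in H1 knockdown libraries, and 111 CPM in MEL1 SCR and 64.2 to 104 CPM with the hairpins. KDR made up most of that sum, at 153 and 157 CPM in H1 SCR and 59.6 to 88.2 CPM with the hairpins, while PECAM1 and CDH5 were detected at low counts in all 12 libraries. Over both lines KDR was called lower (log2 -0.89, adjusted p 0.0363, edgeR), where 0.157% of all genes were. In the H1 average 2 of the 6 were called lower, where 4.93% of all genes were. These were KDR (-1.07, adjusted p 0.000162) and RUNX1 (-1.78, adjusted p 0.0193). PECAM1, CDH5 and TEK were lower without being called, and HBE1, at most 0.101 CPM in H1, was higher (2.95) without being called. Neural crest markers (6 of 6 tested) summed to 127 to 152 CPM in H1 SCR and 71.8 to 117 CPM with the hairpins, and to 146 CPM in MEL1 SCR and 90.6 to 353 CPM with the hairpins. In the H1 average 4 of the 6 were called lower (FOXD3, PAX3, PAX7 and TFAP2B) and 1 higher, MITF (1.28, adjusted p 0.0363), where 4.93% and 2.23% of all genes were. Neural ectoderm markers (7 of 7) summed to 933 to 995 CPM in H1 SCR and 1057 to 1291 CPM with the hairpins. Of the 7, 5 were called higher in the H1 average, where 2.23% of all genes were. The MEL1 sum was lower with the hairpins (447 to 531 CPM) than in SCR (647 CPM), through NES and OTX2 alone. NES fell from 516 CPM to between 351 and 412 CPM, and OTX2 from 125 CPM to between 73 and 105 CPM. PAX6, SOX1, LHX2, SIX3 and RAX were above the single MEL1 SCR library in all 3 knockdown libraries, at low levels. In MEL1, SOX1 reached 8.34 CPM, and PAX6, LHX2, SIX3 and RAX at most 2.92 CPM.

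The sum of 7 pluripotency markers overlapped in H1, at 1569 to 1706 CPM with SCR and 1673 to 2001 CPM with the hairpins, but its genes moved in both directions. In the H1 average POU5F1 (-1.13, adjusted p 0.0191), NANOG (-0.96, adjusted p 0.0325) and ZFP42 (-0.57, adjusted p 0.0163) were called lower by edgeR. SOX2 (0.46, adjusted p 0.0313) was called higher. Of all genes 4.93% were called lower and 2.23% higher. NANOG was at 7.04 and 6.12 CPM in H1 SCR and 8.6 and 6.79 CPM with KD3. In MEL1 the sum was 3720.3 CPM with SCR and 2444 to 4164 CPM with the hairpins. POU5F1 in MEL1 was at 496 CPM with SCR, 798 and 879 CPM with KD1 and 239.9 CPM with KD2. In H1 SCR and H1 knockdown libraries, mesenchyme markers (8 of 8) summed to 242 to 325 CPM and 222 to 409.8 CPM. Trophoblast and amnion markers (8 of 8) summed to 19.8 to 26 CPM and 20.5 to 25.2 CPM in these. Endoderm and liver markers were near 0, the liver being a tissue known for high AKR1C levels. The 7 tested of 8 summed to at most 2.71 CPM in H1 and 17 CPM in MEL1, and SOX17 was at 0 in 8 of 12 libraries. The stem cell origin showed in POU5F1, NANOG, SOX2 and LIN28A, which were detected in all 12 libraries.

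The 5 genes whose pattern was most like that of AKR1C3 were CYRIA, ADGRL4, KDR, PKDCC and TLR4. The measure was Pearson's r of log2(CPM + 0.5) over 12 libraries after each line's mean was removed, among 15640 genes whose mean was 1 CPM or more, and it is given as a description because the libraries share their groups. It was 0.946 for CYRIA, 0.944 for ADGRL4, 0.937 for KDR and 0.922 for both PKDCC and TLR4. KDR and ADGRL4 are endothelial receptors and TLR4 is an innate immune receptor, but no cell type is read from the 5 genes. In MEL1 SCR, KDR was at 99 CPM while CDH5 was at 0.273 CPM and ADGRL4 at 1.36 CPM. ADGRL4 was at 15 and 21.6 CPM in H1 SCR, 2.49 to 4.3 CPM in the H1 knockdown libraries and at most 1.44 CPM in MEL1. It shared with AKR1C3 the high H1 SCR level and low levels elsewhere.

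For GCLC the 5 were MFSD14B, VPS29, PPP2R3C, CYB5B and TPM3, with r of 0.957, 0.951, 0.949, 0.948 and 0.947. MFSD14B was at 53.1 and 58.5 CPM in H1 SCR and at 37.9 to 46.7 CPM with the hairpins, and MEL1 had 64.9 CPM in SCR and 58 to 63.7 CPM in the others. VPS29 was at 56.6 CPM in both the SCR library and 1 KD1 library of MEL1, so these genes did not all separate in that line. Measured in the same way among the members, AKR1C3 had r of 0.96 with AKR1C2, 0.91 with AKR1C1 and 0.78 with NQO1. GCLC had r of 0.85 with GCLM and 0.85 with TXNRD1. HMOX1 had r of 0.85 with NQO1 and -0.5 with SLC7A11, and SRXN1 had r of 0.01 with AKR1C3.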

How the data were processed

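The authors deposited estimated counts per Ensembl gene identifier, and the values show no sign of scaling between libraries (14.8% to 20.8% of a library's values were not whole). Per the submitters' processing notes, fastp and kallisto were used; their versions, the annotation, the genome build and the strand setting are not given in the sources used here. Symbols came from a table that held 59243 of the 65969 identifiers.

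Estimated counts were rounded, filtered with edgeR's filterByExpr (24898 genes) and scaled by TMM. The main test was edgeR's robust quasi-likelihood F-test (edgeR 4.0.16, with R 4.3.3 and limma 3.58.1), Benjamini-Hochberg adjustment ran over all tested genes, and calls were made at an adjusted p under 0.05. The comparison over both lines had cell line as a covariate, and the others came from a model of the 7 groups. SE was computed from the log2 fold change and its F statistic. The fits were tested on simulated data. Alternatives were other scalings and filters, DESeq2 1.42.0, a non-robust fit, removal of a GC and length trend, group means, H1 by itself, the AKR1C genes summed, and leaving out each library.

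The members, the related and marker gene lists, the tests and the alternatives were chosen with earlier results of these data known. Named genes are METTL14, the members, list genes called over both lines or in the H1 average, NFE2L2, KEAP1 and BACH1, and the 5 genes most correlated with AKR1C3 and with GCLC. Genes named only as markers of a cell type, AKR1C4, ASNS, AKR7A2 and the antisense partner of SLC7A11 fall outside that rule.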

Additional observations from a re-analysis of the deposited data

Results flagged for a closer look

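The effect of KD1 and KD2 differed between the lines for 2 of the 8 members tested. The difference, MEL1 minus H1, was 1.65 for AKR1C2 (adjusted p 0.0483) and 1.68 for NQO1 (adjusted p 0.0425) on the log2 scale with edgeR, and in each line the knockdown libraries are set against SCR libraries of which MEL1 has 1. Of all genes 0.454% were called higher in this comparison. It shares its SCR libraries with the contrast that chose the set, so its p-values are not free of that choice. Both calls were near the threshold, and in 17 other settings AKR1C2 passed in 4 and NQO1 in 6. The division of reads between AKR1C2 and AKR1C1, which did not pass, is uncertain.

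TXNRD1 differed between H1 hairpins, with KD3 above KD1 by 0.43 on the log2 scale (adjusted p 0.0456, edgeR) in 2 of 2 libraries. The test of any difference among the 3 hairpins did not call it (adjusted p 0.0572), and KD3 against KD1 passed in 5 of 20 other settings.

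For METTL14, the 10 members and the total of estimated counts, 0 of 12 had a library that stood apart among the 6 H1 knockdown libraries.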

How the results depend on the processing

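METTL14 kept its direction and its call in all 21 alternatives, at -2.24 to -1.51. The members called over both lines, 2 as reported, numbered 7 with DESeq2 and in the model of group means, 4 with H1 libraries by themselves, 1 with the AKR1C genes summed (the sum itself, of 8 rows), and 0 to 4 when 1 library was left out. In the H1 average the 7 became 4 to 7 when 1 library was left out. Calls for any difference between H1 hairpins, 0 as reported, became 5 with no low-count filter, 3 with DESeq2, 1 at a minimum of 1 CPM in 3 libraries and 0 to 2 when 1 library was left out. Calls for the effect in MEL1 minus H1, 2 as reported, became 0 with median-of-ratios scaling, upper-quartile scaling, a minimum of 1 CPM in 3 libraries or a non-robust fit, 4 with DESeq2 and 5 with no low-count filter (AKR1C3, given without a test above, is 1 of each) and 0 to 1 when 1 library was left out. For that comparison the median of all genes was 0.11 with TMM, 0.036 with median-of-ratios and 0.0092 with upper-quartile scaling. Calls for MEL1 against H1 under KD1 and KD2, 3 as reported, became 5 with no low-count filter and 2 to 5 when 1 library was left out. Other NRF2 targets called over both lines, 0 as reported, became 6 in the model of group means, 2 with DESeq2, 1 with median-of-ratios scaling, a minimum of 1 CPM in 3 libraries, the GC and length trend removed or H1 by itself, and 0 to 2 when 1 library was left out. The AKR1C sum was -2.08 with H1 by itself and -2.09 to -1.49 when 1 library was left out. The cause of these changes was not tested. Over all genes, the calls over both lines numbered 53 as reported, 1246 with DESeq2 and 11 to 280 when 1 library was left out, and those in the H1 average 1783 and 123 without the second H1 SCR library. The model of group means called 10.8% of all genes. For any difference between H1 hairpins the share of all genes was 3.54% as reported, 8.93% with DESeq2 and 8.43% with no low-count filter. No paired analysis was possible because the labels carry no replicate numbers. MEL1 minus H1 could not be fitted without the MEL1 SCR or KD2 library. Depth limits AKR1C1, AKR1C2 and AKR1C3 most, with as few as 76.3, 83.2 and 63 estimated counts in a library.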
